A study of Mus musculus with 17 samples.

Results

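A pseudogene is a copy of a gene that has lost the ability to encode the original protein, and 121 annotated mouse pseudogenes were followed here in oocytes with and without maternal Ehmt2. They were taken from a table of 2615 genes by their annotated biotype. Of the 129 rows with a pseudogene biotype, 8 were left out by name, namely AC167192.3 and the olfactory receptor pseudogenes (Olfr). The 121 pseudogenes comprised 85 processed and 35 unprocessed pseudogenes and 1 polymorphic pseudogene, Oas1b. Of the processed pseudogenes, 14 were annotated as transcribed, and of the unprocessed ones, 9.

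Ehmt2 encodes a histone methyltransferase that dimethylates lysine 9 of histone H3, a mark associated with silent chromatin. The study compared 3 libraries of control oocytes (C1, C2 and C6, genotype Ehmt2(flox/flox)) with 3 libraries of Ehmt2 GKO oocytes (K3, K4 and K5, genotype Ehmt2(flox/flox); Gdf9-Cre) from C57BL/6J females of 8 weeks. Both groups carried the floxed alleles, and Cre driven by the Gdf9 promoter removed Ehmt2 exons 4 to 20 in oocytes from the primordial follicle stage on. The labels give the oocytes as MII and their tissue as ovary, the study describes them as superovulated, and the sources used here do not say how many oocytes or animals went into a library, so the spread between libraries may be partly technical. The paper reports that few Ehmt2 GKO oocytes completed the first meiosis and that they arrested at metaphase I. The groups may therefore differ in meiotic stage as well as genotype, and the 2 cannot be told apart here. cDNA was made from polyadenylated RNA and amplified with the SMART-Seq v4 kit, which does not mark strand. Values per library follow the order C1, C2 and C6 (control replicates 1, 2 and 6) and then K3, K4 and K5 (Ehmt2 GKO replicates 3, 4 and 5).

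Processed pseudogenes arise when an mRNA is reverse transcribed and inserted elsewhere in the genome, so that they lack introns and arrive without the promoter of the parent gene. Unprocessed pseudogenes arise from duplication of genomic DNA and often lie beside the gene they came from, with the introns and the flanking sequence still recognisable. Oocytes have long been known to carry transcripts of many pseudogenes and transposable elements, and some pseudogene transcripts in mouse oocytes pair with those of their parents to give small RNAs. Because a copy can be almost identical to its parent, reads of either can be assigned to the other, and the handling of such reads by the authors is not given in the sources used here.

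Every row of the table already had a deposited adjusted p below 0.05 for the same 6 libraries, and the deposited p-values implied that 15643 genes had been tested. The p-values below are therefore descriptive. The counts of the listed genes summed to 4060653 to 4258350 reads per library. Ehmt2 itself was not a row, so its deletion was not checked here. Of 13 oocyte markers 6 were listed, each with at least 1763 reads in every library. Of 24 cumulus and granulosa cell markers 2 were listed: Ptgs2, with 6 to 14 reads in control and 59 to 107 in Ehmt2 GKO libraries, and Kitl, with 325 to 368 and 188 to 254 reads. Their part in the values below was not tested.

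Sequence stretches of the copies on which the results turn show how closely they resemble each other, and each was read 5′ to 3′ on the transcript strand. The first set compared copies of Gapdh, the glycolytic enzyme whose mRNA has been retrotransposed many times in rodents, because its copies moved in opposite directions between the groups. The 80 bases lie in the coding sequence of Gapdh and, for the copies, at chr11:3952220-3952299 (Gm11953), chr4:90369214-90369293 (Gm12634), chr9:93391797-93391876 (Gm9621) and chr14:55042275-55042354 (Gm10364), all in GRCm38. Capitals mark bases that differ from Gapdh.

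Gapdh: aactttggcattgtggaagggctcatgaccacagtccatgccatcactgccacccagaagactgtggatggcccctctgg
Gm11953: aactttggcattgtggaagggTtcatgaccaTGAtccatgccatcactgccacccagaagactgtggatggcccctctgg
Gm12634: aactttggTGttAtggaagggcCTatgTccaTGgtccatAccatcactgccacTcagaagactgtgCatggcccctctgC
Gm9621: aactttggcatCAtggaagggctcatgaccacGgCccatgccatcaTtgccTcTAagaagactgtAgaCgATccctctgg
Gm10364: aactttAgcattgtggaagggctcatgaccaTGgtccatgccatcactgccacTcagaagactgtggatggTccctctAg

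In this stretch, the one without gaps that held the most variable positions, Gm11953 differed from Gapdh at 4 of 80 bases, Gm10364 at 6 and Gm12634 and Gm9621 at 12 each. Over all aligned bases, Gm11953 was 97.1% identical to Gapdh, Gm10364 90.3%, Gm9621 88.1% and Gm12634 88.0%. Each copy can thus be told from Gapdh by its own bases, Gm11953 the least readily. A 50-base window of the annotated exons was counted as unique when it occurred once in the genome and in no transcript of another locus. By this measure 48.5% of the windows were unique for Gm11953, 92.5% for Gm10364, 98.8% for Gm12634 and 99.3% for Gm9621.

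The second set compared 4 unprocessed copies of Tmem92, a transmembrane protein gene, that lie around it on chromosome 11. They are shown because neighbouring copies differed widely in their level and in their change. The stretch lies in the coding sequence of Tmem92 (minus strand, chr11:94778963-94779042) and at chr11:94757408-94757487 (Gm11545), chr11:94797432-94797511 (Gm11546), chr11:94813004-94813083 (AA623943) and chr11:94845755-94845834 (Gm11544), and capitals mark bases that differ from Tmem92.

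Tmem92: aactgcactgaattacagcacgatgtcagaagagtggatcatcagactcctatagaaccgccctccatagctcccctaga
Gm11545: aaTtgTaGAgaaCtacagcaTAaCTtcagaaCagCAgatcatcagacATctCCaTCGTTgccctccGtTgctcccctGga
Gm11546: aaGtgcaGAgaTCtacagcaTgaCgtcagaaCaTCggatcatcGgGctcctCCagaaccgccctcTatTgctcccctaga
AA623943: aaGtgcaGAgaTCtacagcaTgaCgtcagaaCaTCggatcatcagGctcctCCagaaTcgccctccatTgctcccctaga
Gm11544: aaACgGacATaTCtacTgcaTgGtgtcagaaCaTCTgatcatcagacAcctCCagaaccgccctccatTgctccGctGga

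Gm11545 differed from Tmem92 at 24 of these 80 bases, Gm11544 at 20, Gm11546 at 16 and AA623943 at 15. Gm11546 and AA623943 were the closest pair, with 97.2% identity over the aligned transcripts, whereas all other pairs among the 4 copies were 80.4% to 87.5% identical. The resemblance extended upstream of the annotated starts. The 120 bases before each start, on the minus strand at chr11:94757764-94757883, chr11:94797778-94797897, chr11:94813349-94813468 and chr11:94846093-94846212, read as follows, with capitals where a copy differs from Gm11545 in the alignment.

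Gm11545: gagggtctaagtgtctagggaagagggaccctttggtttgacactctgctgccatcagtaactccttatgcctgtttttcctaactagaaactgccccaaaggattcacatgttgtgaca
Gm11546: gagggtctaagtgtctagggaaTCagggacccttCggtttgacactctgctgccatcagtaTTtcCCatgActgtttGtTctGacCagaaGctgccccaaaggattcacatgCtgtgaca
AA623943: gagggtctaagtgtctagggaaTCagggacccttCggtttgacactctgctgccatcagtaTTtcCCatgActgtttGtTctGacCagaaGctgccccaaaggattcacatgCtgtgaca
Gm11544: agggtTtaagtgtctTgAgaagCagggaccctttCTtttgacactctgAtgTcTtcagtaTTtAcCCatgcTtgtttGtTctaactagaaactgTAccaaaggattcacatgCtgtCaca

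Over the 250 bases before the start, Gm11546 and AA623943 were 97.6% identical and the other pairs 83.9% to 88.6%. The copies with little RNA in control oocytes and the abundant Gm11545 therefore carried related upstream sequence.

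The third set compared 3 unprocessed copies on chromosome 10 that belong to a local family around the protein-coding gene Gm4302. The stretch lies at chr10:100356441-100356520 (Gm8711, plus strand), chr10:100325645-100325724 (AC164629.9, plus strand) and chr10:100377052-100377131 (AC164629.10, minus strand), and capitals mark bases that differ from Gm8711.

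Gm8711: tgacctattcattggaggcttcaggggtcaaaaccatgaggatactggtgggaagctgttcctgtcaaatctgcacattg
AC164629.9: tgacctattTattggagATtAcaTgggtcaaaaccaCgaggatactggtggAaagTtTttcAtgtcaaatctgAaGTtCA
AC164629.10: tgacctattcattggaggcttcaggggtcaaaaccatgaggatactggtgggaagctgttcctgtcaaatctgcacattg

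AC164629.9 differed from Gm8711 at 15 of 80 bases, and AC164629.10 at 0. Gm8711 and AC164629.10 were 99.5% identical over 819 aligned bases, and 0% of the 50-base windows of AC164629.10 were unique, so reads of these copies cannot be told apart with confidence. AC164629.9 can be told apart, with 92.3% of its windows unique.

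Of the 121 pseudogenes, 109 passed the filter on low counts and were tested with edgeR, and 12 did not. A pseudogene was called when its fold change exceeded 2 and its adjusted p was below 0.01. By this rule 38 were called higher in Ehmt2 GKO oocytes and 32 lower, against 18.7% of all 2516 tested rows called higher and 16.9% called lower, and 39 tested pseudogenes were not called. With other size factors (RLE) 40 were called higher and 26 lower, and with DESeq2 50 and 28. The median of all rows shifted by 0.09 on the log2 scale with each. DESeq2 was run without the filter on low counts, so it could also call pseudogenes that were not tested with edgeR. In either direction 64.2% of the tested pseudogenes and 35.7% of all tested rows were called. Among the 78 tested processed pseudogenes 26 were called higher and 29 lower, with a median log2 fold change of -0.51. Among the 30 tested unprocessed pseudogenes 12 were called higher and 3 lower, with a median of 0.65. The median over all tested rows was -0.32. Rises and falls were thus near balance among processed pseudogenes, and rises were the more numerous among unprocessed ones. The difference between the classes was not tested. With the fold change itself tested against 2, 16 processed pseudogenes were called higher and 4 lower, and 7 unprocessed ones higher and 1 lower. Among members without a near-identical transcript elsewhere (95% identity or more over 50% of the length or more), 14 processed pseudogenes were called higher and 13 lower, and 2 unprocessed ones higher and 1 lower.

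**Figure D1:**
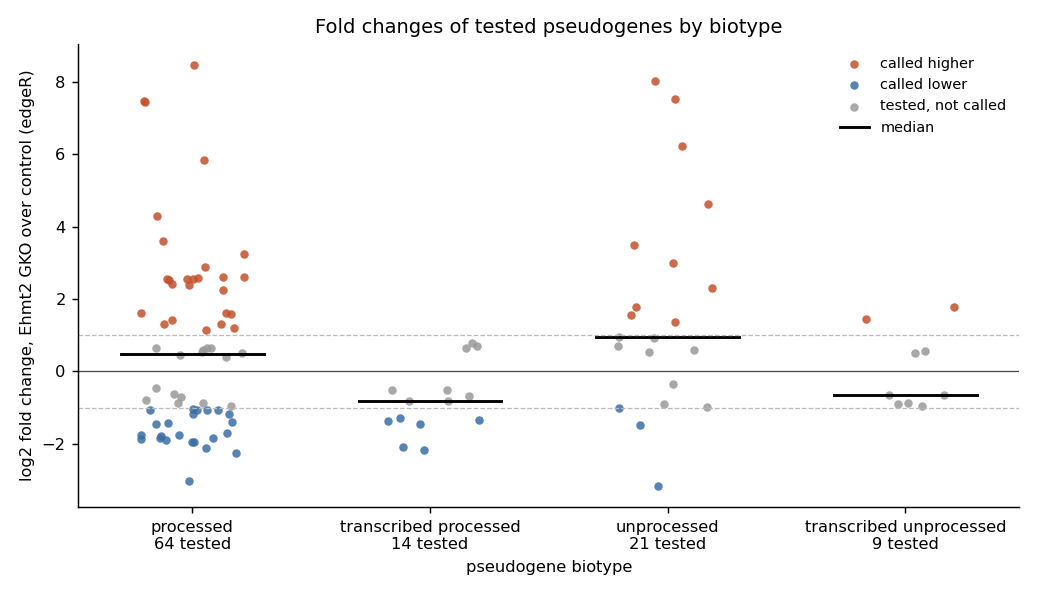
Log2 fold change (Ehmt2 GKO over control, edgeR) of each tested pseudogene, by annotated biotype, with black bars at the median and dashed lines at a fold change of 2 in either direction. Rises reached further from 0 than falls in processed and unprocessed pseudogenes, and none of the 14 transcribed processed pseudogenes was called higher.

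Level and call went together, as the selection of the rows favours: at low counts only a large change reaches a low adjusted p. The 121 pseudogenes had a median of 63.7 normalized counts (reads divided by the size factor of the library) over the 6 libraries, and all rows of the table a median of 329.6. Among tested rows with a mean under 100 normalized counts, 97.6% of 41 processed pseudogenes, 82.4% of 17 unprocessed pseudogenes and 90.9% of 550 rows that are not among the pseudogenes were called. At 100 normalized counts or more the shares were 40.5% of 37, 7.69% of 13 and 17.6% of 1857. The high share of called pseudogenes was thus close to that of other listed genes of low level, while processed pseudogenes of higher level had 8 called higher and 7 lower.

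The groups did not overlap for 117 pseudogenes, of which 65 were above and 52 below control in all Ehmt2 GKO libraries, against 96.1% of all rows without overlap (50.1% above and 46% below). The other 4 were AC153546.1, Gm7426, Gm13230 and Gm3089, named after their values were seen. Rare transcripts made up part of the rises: 16 pseudogenes, 9 processed and 7 unprocessed, had at most 3 reads in every control library, against 4.36% of all rows. The reverse, at most 3 reads in every Ehmt2 GKO library, held for 3 pseudogenes (Gm4825, Gm5507 and Gm8493), against 1.03% of all rows. In bulk oocyte RNA a higher level in every oocyte and transcription in a few oocytes cannot be told apart.

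By annotated biotype, the 64 tested pseudogenes annotated as plain processed had 26 called higher and 23 lower. The 14 transcribed processed pseudogenes had 0 called higher and 6 lower, beside 18.7% and 16.9% of all tested rows and 17.6% called in either direction among other rows at 100 normalized counts or more. At an unadjusted edgeR p under 0.05, 3 of these 14 were higher, and DESeq2 also called 0 higher. The 21 tested plain unprocessed pseudogenes had 10 called higher and 3 lower, and the 9 transcribed unprocessed ones 2 higher and 0 lower, with 5 lower at an unadjusted edgeR p under 0.05 and 0 called lower by DESeq2. The annotated transcribed copies were the more abundant ones, with a median of 260 (processed) and 281 (unprocessed) normalized counts against 53.2 and 37.1 for the others.

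Summed over all members, processed pseudogenes held 27522, 30149 and 31991 normalized counts in the control libraries. The same sum was 38831, 41986 and 39388 in the Ehmt2 GKO libraries. Unprocessed pseudogenes held 25448, 25259 and 28481 in control and 31629, 36335 and 33114 in Ehmt2 GKO libraries. The Ehmt2 GKO libraries were above every control library in both classes, by 1.34-fold and 1.28-fold between group means, with no test on these sums. Gm5946 alone gave 45.2% of the processed counts, and without it the log2 ratio of the processed class was 0.06 in place of 0.42. Without its 3 most abundant members, of which the other 2 were lower in Ehmt2 GKO oocytes, it was 0.24. The unprocessed class gave 0.35 with and without its 3 most abundant members. Without the members that have a near-identical transcript the processed class gave -0.12 and the unprocessed class 0.22.

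**Figure D2:**
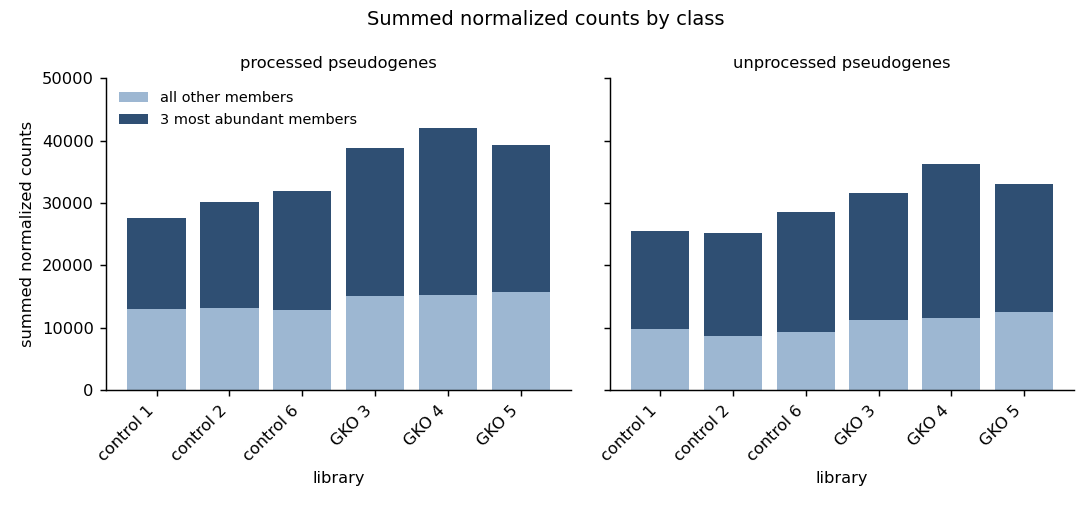
Summed normalized counts of processed (left) and unprocessed (right) pseudogenes in each of the 6 libraries, with the 3 most abundant members of each class in dark blue. The dark part made up 59.6% of the processed and 64.9% of the unprocessed counts over the libraries, and both stacks were higher in the 3 Ehmt2 GKO libraries.

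The most abundant processed pseudogene was Gm5946 on chromosome X (chr X, 150220716 to 150226021, minus strand), a copy of Bmi1, which encodes a subunit of Polycomb repressive complex 1. It had 8891, 11551 and 12872 normalized counts in control and 19383, 22441 and 19643 in Ehmt2 GKO libraries. All Ehmt2 GKO values were above all control values, at 11105 ± 2028 against 20489 ± 1695 (SD, n = 3 each), and its log2 fold change of 0.79 ± 0.12 (SE) stayed below the threshold for a call. Of its 50-base windows 76.2% were unique, and Bmi1 was not among the listed genes. The next were Zfp813-ps, which went from 3648 ± 250 to 2805 ± 172 normalized counts, and Gm5434, a copy of the ubiquitin-conjugating enzyme gene Ube2f, which went from 2207 ± 178 to 1462 ± 150 (SD, n = 3 each). Both were lower in all Ehmt2 GKO libraries, by log2 fold changes of -0.47 and -0.68, and neither was called. Another listed row with the symbol Zfp813-ps, 19.0 kb away, is not among the pseudogenes followed here and had a log2 fold change of -0.64.

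The largest rises among processed pseudogenes started from almost no RNA. Gm11953 (chr11, 3951714 to 3952716), the closest of the Gapdh copies shown above, had 0 reads in each control library and 41, 41 and 50 reads in the Ehmt2 GKO libraries. Against a floor of 3 counts over the control group it was at least 46.6-fold higher. It passed the filter on low counts only through the Ehmt2 GKO libraries, so as a listed and tested gene it had to differ. It lies in an intron of 4930556J24Rik on the opposite strand, and reads of the 2 strands cannot be told apart. Gm11953 was thus read only in Ehmt2 GKO libraries at this depth.

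Gm13726 (chr2, 77962269 to 77963062), a copy of the ribosomal protein gene Rpl7a with 95.3% of its windows unique, had 1, 0 and 1 reads in control and 101, 135 and 184 in Ehmt2 GKO libraries. The ratio of its normalized counts was 223, with a 95% counting interval of 61.2 to 1844 that covers counting error only. Gm18860 (chr8, 71704205 to 71704968), a copy of the deadenylase gene Cnot8, had 1, 3 and 1 against 80, 119 and 110 reads and rose by a log2 fold change of 5.84 ± 0.47 (SE). Gm13726 and Gm18860 also passed the filter only through the Ehmt2 GKO libraries, so they had to differ. Both copies are set beside their parents here, at chr2:77962938-77963017 and chr8:71704889-71704968 on the minus strand, with capitals where the copy differs.

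Rpl7a: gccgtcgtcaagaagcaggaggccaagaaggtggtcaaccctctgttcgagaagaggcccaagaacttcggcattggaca
Gm13726: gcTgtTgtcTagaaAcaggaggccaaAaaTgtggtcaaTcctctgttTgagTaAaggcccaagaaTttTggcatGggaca
Cnot8: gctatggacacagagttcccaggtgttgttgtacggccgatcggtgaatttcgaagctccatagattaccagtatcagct
Gm18860: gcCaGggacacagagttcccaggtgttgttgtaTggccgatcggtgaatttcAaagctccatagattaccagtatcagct

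Gm13726 differed from Rpl7a at 13 of these 80 bases and Gm18860 from Cnot8 at 4. Neither Rpl7a nor Cnot8 was among the listed genes. The longest open reading frame covered 34.1% of the Rpl7a coding length in Gm13726 and 33.8% of the Cnot8 coding length in Gm18860. Other copies kept longer frames. In 18 of the 85 processed pseudogenes, 4 of them among the 26 called higher, the longest frame was at least as long as the parent coding sequence.

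The other named rises were of moderate size. Gm4850, on chromosome 1, had 2.94, 1.93 and 3.87 normalized counts in control and 45.1, 68.0 and 78.7 in Ehmt2 GKO libraries, a log2 fold change of 4.30 ± 0.46. Rps3a2, a copy of the ribosomal protein gene Rps3a1, had 2.94, 4.83 and 0.967 against 42.2, 30.8 and 44.1, a log2 fold change of 3.60 ± 0.51. Gm8674 had 14.7, 1.93 and 2.90 against 54.9, 61.7 and 82.9, a log2 fold change of 3.23 ± 0.50. No control library of the 3 genes reached the lowest Ehmt2 GKO library. Control replicate 1 was the highest control value of Gm8674 by a wide margin. Rps3a2 had only 9.8% unique windows, as it was near-identical to 6 other loci, against 95.9% for Gm4850 and 100% for Gm8674.

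**Figure D3:**
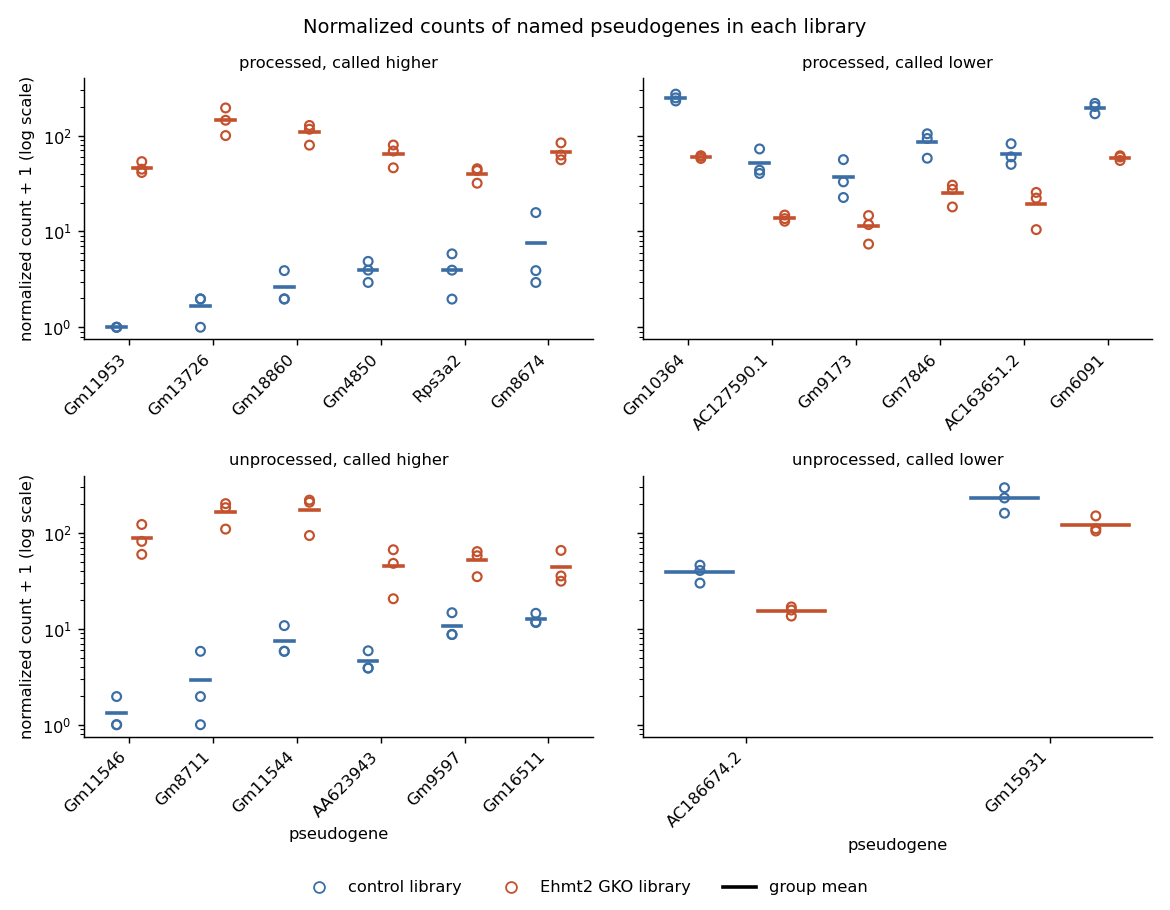
Normalized count plus 1 (log scale) of the named called pseudogenes in each library, control in blue and Ehmt2 GKO in red, with bars at group means. The processed and unprocessed rises start from at most 14.7 normalized counts in control, while the falls keep some RNA in every Ehmt2 GKO library.

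The falls among processed pseudogenes were smaller. Gm10364 (chr14, 55038462 to 55042979), a transcribed Gapdh copy, had 229, 246 and 270 normalized counts in control and 59.8, 60.6 and 56.7 in Ehmt2 GKO libraries, a log2 fold change of -2.16 ± 0.19 (edgeR adjusted p = 1.22e-07). AC127590.1, which matched the vomeronasal receptor gene Vmn2r53 over 24.7% of its length, had 39.2, 71.5 and 42.5 against 11.8, 13.8 and 12.6, a change of -2.09 ± 0.38. Gm9173, a copy of the mitochondrial ribosomal protein gene Mrps16, had 21.6, 31.9 and 55.1 against 10.8, 6.38 and 13.6, a change of -1.89 ± 0.44. Each was lower in all 3 Ehmt2 GKO libraries than in any control library.

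AC163651.2, a diverged copy of Dlgap5, which encodes a spindle protein, had 49.1, 59.0 and 81.2 against 24.5, 21.3 and 9.45 normalized counts, a log2 fold change of -1.85 ± 0.37. Gm6091, a copy of part of the thymidine kinase gene Tk1, had 168, 200 and 216 against 53.9, 60.6 and 58.8, a change of -1.84 ± 0.21. The parents of these last 3 genes were listed, with log2 fold changes of -0.59 for Mrps16, -0.44 for Dlgap5 and -1.39 for Tk1, of which only that of Tk1 was called. Tested against a fold change of 2, AC127590.1, Gm9173, Gm7846 and AC163651.2 were no longer called, with adjusted p between 0.0104 and 0.0491.

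Gm7846 belongs to a pair of copies of Lsm5, which encodes a subunit of the ring bound to U6 small nuclear RNA. The pair is shown because copies and parent moved together and can hardly be told apart. The stretch lies at chr1:28580521-28580600 (Gm7846, minus strand) and chr17:36226172-36226251 (Gm10074, plus strand), with capitals where a copy differs from Lsm5.

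Lsm5: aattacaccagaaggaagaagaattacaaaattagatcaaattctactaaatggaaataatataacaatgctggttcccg
Gm7846: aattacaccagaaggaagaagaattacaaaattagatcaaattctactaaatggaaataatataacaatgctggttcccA
Gm10074: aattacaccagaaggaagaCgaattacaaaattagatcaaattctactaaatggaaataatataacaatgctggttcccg

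Gm7846 and Gm10074 each differed from Lsm5 at 1 of these 80 bases, and 34.2% and 12.0% of their windows were unique. Gm7846 had 92.2, 103 and 57.0 normalized counts in control and 26.5, 17.0 and 29.4 in Ehmt2 GKO libraries, a log2 fold change of -1.88 ± 0.33. Gm10074, named after its values were seen, had 33.4, 27.1 and 23.2 against 8.83, 6.38 and 7.35, a change of -1.96 ± 0.42. Lsm5 itself had 801, 620 and 560 against 267, 188 and 230, a change of -1.62 ± 0.17. All 3 were called lower.

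The 6 Gapdh copies did not share a direction, and those outside the rule for named genes are given after their values were seen. Gm12634 (chr4, 90368731 to 90369722) had 0 reads in each control library and 21, 23 and 21 in the Ehmt2 GKO libraries, at least 23.0-fold higher against a floor of 3 counts over the group. Gm9621 had 7.85, 19.3 and 17.4 normalized counts against 61.8, 40.4 and 44.1, a log2 fold change of 1.62 ± 0.38. With Gm11953 they made 3 copies called higher. Gm8529 had 234, 373 and 254 against 79.4, 104 and 88.2, a change of -1.76 ± 0.21, and with Gm10364 it made 2 copies called lower. Gm5507 had 19.6, 7.73 and 10.6 against 2.94, 0 and 0 and was too low to be tested. Gapdh was not among the listed genes.

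Members were also grouped by the symbol of the best-matching parent, which misses parents whose symbols do not name their family. Calls in these small groups stand beside 18.7% of all tested rows called higher and 16.9% lower, and beside 90.9% called in either direction among other rows under 100 normalized counts. Parents with ribosomal protein symbols were the commonest, with 10 processed copies, of which 8 were tested. Of these 5 were called higher (Gm13726, Rps3a2, Rpl30-ps11, Gm4997 and Gm4889) and 2 lower (AC132304.1 and Gm11765), with a median log2 fold change of 1.79 beside -0.32 for all tested rows. Of 7 copies whose parent has a zinc finger symbol (Zfp), 5 were tested. Of these 2 were called higher (Gm12633 and Gm13230), and the other 3 were lower in Ehmt2 GKO oocytes without being called, with a median log2 fold change of -0.52 over the 5. Zfp640, Zfp813-ps and Zfp939 have other parent symbols and stood outside this group, as noted after their values were seen. They had log2 fold changes of -0.81, -0.47 and -0.89, none called. The 5 copies matched to 2410141K09Rik, a symbol that names no family, also stood outside it, with 3 called lower and 1 higher. Of 4 copies with ubiquitin and proteasome parent symbols, 2 were called lower and 0 higher, with 0 higher at an unadjusted edgeR p under 0.05 and 0 called higher by DESeq2. Of 3 pseudogenes whose best match was a vomeronasal receptor gene 2 were called lower, of which AC127590.1 matched over only 24.7% of its length. The third, AC124569.3, had a log2 fold change of 0.94 and was not called. Copies of Gapdh and of ribosomal protein genes thus accounted for 8 of the 26 processed pseudogenes called higher. Parent symbols of translation factors (Gm9892), histones (Gm7426), the respiratory chain (Gm4459) and cyclins (Ccnb1-ps) had 1 copy each, of which Gm7426 was called lower. Copies of RNA-binding protein genes were called in both directions, Gm7324 (Rbmxl1) and Gm7061 (U2af2) higher and the Lsm5 copies lower, as noted after their values were seen. No parent had a nucleoporin symbol, and the 2 copies of the oocyte homeobox gene Obox3 were not tested.

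Obox3-ps4 had 0, 0 and 1.93 normalized counts in control and 12.8, 18.1 and 7.35 in Ehmt2 GKO libraries. Obox3-ps5 had 0, 0.967 and 0 against 14.7, 8.50 and 14.7. Both unprocessed copies were near 0 in control and present in every Ehmt2 GKO library, and 6 other loci held a near-identical transcript for each.

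Among unprocessed pseudogenes the largest rises came from the 2 tandem groups shown above. On chromosome 11, Gm11546 had 0, 0 and 1 reads in control and 60, 76 and 116 in Ehmt2 GKO libraries, a ratio of normalized counts of 267 with a 95% counting interval of 47.5 to 10593. Gm11544 had 9.81, 4.83 and 4.83 normalized counts against 93.2, 208 and 219, a log2 fold change of 4.62 ± 0.41. AA623943 had 4.91, 2.90 and 2.90 against 19.6, 65.9 and 47.2, a change of 3.48 ± 0.54. In all 3, every Ehmt2 GKO library lay above every control library, and Ehmt2 GKO replicate 3 was the lowest of its group. All 3 passed the filter on low counts only through the Ehmt2 GKO group, so they had to differ.

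Their neighbour Gm11545 behaved differently. It was abundant in control oocytes, with 3163, 2189 and 1815 normalized counts, and had 3475, 3228 and 4813 in Ehmt2 GKO libraries. Its log2 fold change of 0.58 ± 0.17 was below the threshold for a call. Per kilobase of exon, Gm11545 held 6371 normalized counts in control, against 0.910, 10.1 and 17.0 for Gm11546, AA623943 and Gm11544. Tmem92, which lies between Gm11545 and Gm11546, had 4.91, 6.77 and 11.6 against 35.3, 36.1 and 23.1, a log2 fold change of 1.92 ± 0.44, and was called higher. All 50-base windows of Gm11545 were unique (100%), against 61.4% for Gm11546, 81.2% for AA623943 and 73.2% for Gm11544, and all 100-base windows of the 4 copies were unique.

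**Figure D4:**
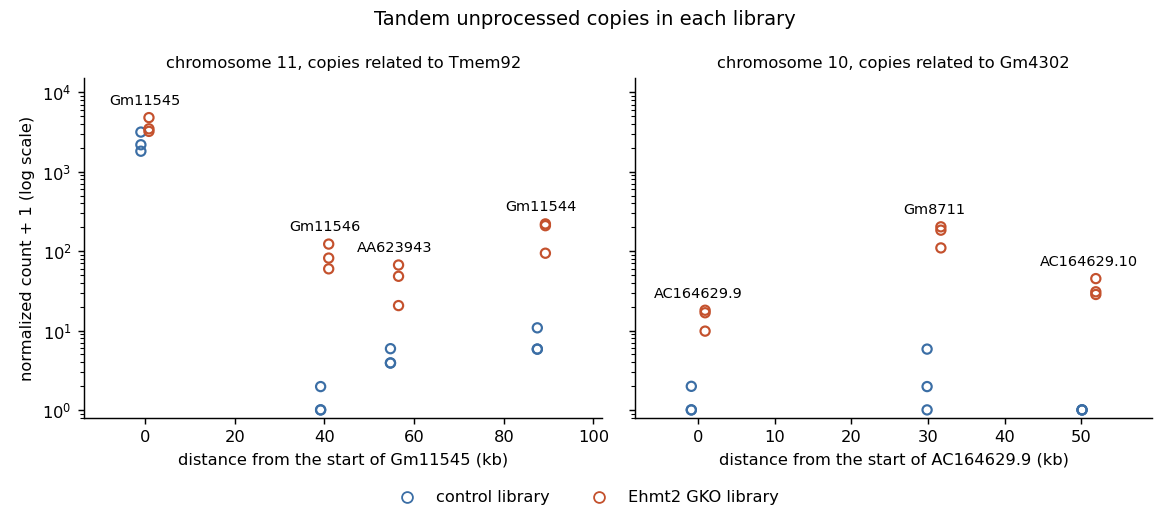
Normalized count plus 1 (log scale) of tandem unprocessed copies in each library against distance along the chromosome (kb), for the chromosome 11 copies around Tmem92 (left) and the chromosome 10 copies (right), control in blue and Ehmt2 GKO in red. Gm11545 is abundant in both groups, while the other 6 copies hold at most 9.81 normalized counts in any control library.

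On chromosome 10, Gm8711 (chr10, 100356235 to 100357117) had 0, 4.83 and 0.967 normalized counts in control and 109, 183 and 202 in Ehmt2 GKO libraries. Its log2 fold change was 6.22 ± 0.51, and it too passed the filter only through the Ehmt2 GKO group. AC164629.10, named after its values were seen, had 0 reads in each control library and 28, 28 and 42 in the Ehmt2 GKO libraries, at least 34.6-fold higher. AC164629.9, also named afterwards and not tested, had 1, 0 and 0 reads in control and 13.9 ± 4.40 normalized counts (SD, n = 3) in Ehmt2 GKO oocytes. The protein-coding neighbours were listed as well: Gm4302 rose by a log2 fold change of 5.11 ± 0.70. Only 13.7% of the windows of Gm8711 were unique. AC164629.9, the copy that can be told apart, was higher too at a lower level, but a listed gene with so few control reads could only be higher.

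The remaining named rises had few windows of their own. Gm9597, on chromosome 14, had 14, 8 and 8 reads in control and 58, 32 and 60 in Ehmt2 GKO libraries, a log2 fold change of 2.29 ± 0.40. Gm16511, on chromosome X, had 11, 11 and 14 against 31, 61 and 33 reads, a change of 1.78 ± 0.40. Gm9597 had 3.4% and Gm16511 47.3% unique windows, and 10 other loci held a transcript near-identical to Gm9597. Gm16511 was no longer called when its fold change was tested against 2 (adjusted p = 0.0533).

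The named falls were AC186674.2 and Gm15931, and each was below all control libraries. AC186674.2, a copy of a vomeronasal receptor gene, had 45.1, 29.0 and 39.6 normalized counts in control and 14.7, 15.9 and 12.6 in Ehmt2 GKO libraries, a log2 fold change of -1.48 ± 0.37. Gm15931, a copy of the immunoglobulin-like receptor gene Pirb, had 160, 231 and 296 against 110, 150 and 104, a change of -1.01 ± 0.23 that lay at the threshold. Without control replicate 6, Ehmt2 GKO replicate 3 or Ehmt2 GKO replicate 5 Gm15931 was no longer called, with log2 fold changes of -0.80, -0.96 and -0.89. AC186674.2 was not called when its fold change was tested against 2 (adjusted p = 0.145).

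The most abundant unprocessed pseudogenes had small fold changes. Gm44527 on chromosome 6 had 6217, 6953 and 8319 normalized counts in control and 9565, 12247 and 10433 in Ehmt2 GKO libraries, and Gm44133, near it, 5036, 5523 and 6268 against 8313, 9923 and 8017. Gm44150, in the same region, had 1026, 1230 and 1553 against 1770, 2241 and 1917. All 3 were higher in each Ehmt2 GKO library, with log2 fold changes of 0.49 ± 0.12, 0.55 ± 0.11 and 0.55 ± 0.13, and all best matched the protein-coding gene Gm19965, which was listed at 103, 81.2 and 57.0 against 155, 134 and 157. Fbxw23, a copy within a cluster of F-box genes on chromosome 9, had 4438, 4077 and 4556 against 2509, 2557 and 2090, a change of -0.96 ± 0.11. It passed the threshold without control replicate 2, Ehmt2 GKO replicate 3 or Ehmt2 GKO replicate 4, with -1.01, -1.02 and -1.01. Its closest listed relative Fbxw16 was lower as well, by -0.46.

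The polymorphic pseudogene Oas1b, an oligoadenylate synthetase gene that is intact in some mouse strains and truncated in others, had 187, 231 and 290 normalized counts in control and 143, 151 and 164 in Ehmt2 GKO libraries. Its log2 fold change of -0.72 ± 0.19 was below the threshold for a call.

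Parent genes of 29 processed and 17 unprocessed pseudogenes were themselves listed, so that copy and parent could be set side by side. Of the 29 processed copies, 19 were near-identical to the listed parent, and 19 of these had the parent's direction. Of the 10 more diverged processed copies, 5 had the parent's direction and 5 the opposite one. Of the 17 unprocessed copies, 14 had the parent's direction, 12 of them among the 14 copies that were not near-identical. Some parents recur, so these pairs are not independent. The diverged processed copies include 5 of 2410141K09Rik, and the unprocessed ones include 4 of Tmem92 and the Gm19965 relatives Gm44527, Gm44133 and Gm44150. Copy and parent are both rows selected for a difference, and reads shared between near-identical sequences give both the same direction. How far such sharing set these counts was not tested.

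**Figure D5:**
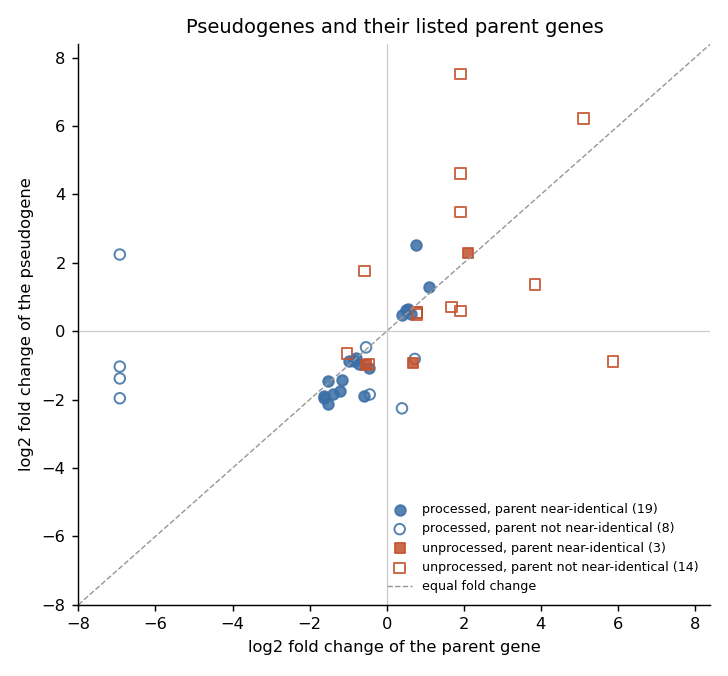
Log2 fold change of each tested pseudogene against that of its parent gene where the parent was listed and tested, filled symbols for near-identical parents, with the dashed line at equal fold change. The 19 processed copies with a near-identical parent lie in the quadrants of like sign, while copies with other parents, and 1 of 3 unprocessed copies with a near-identical parent (Gm36448), also fall in the other quadrants.

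The most abundant processed copies with a listed parent had fold changes close to that of the parent. Ccnb1-ps, a copy of the cyclin B1 gene, is shown with its parent over the stretch that held the most differences, at chr7:42105934-42106013 on the minus strand.

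Ccnb1: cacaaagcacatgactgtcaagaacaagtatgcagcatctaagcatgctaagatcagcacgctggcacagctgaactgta
Ccnb1-ps: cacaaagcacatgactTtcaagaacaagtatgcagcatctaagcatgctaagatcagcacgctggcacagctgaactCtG

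Ccnb1-ps differed from Ccnb1 at 3 of these 80 bases and was 99.2% identical over 1287 aligned bases. It had 833, 932 and 625 normalized counts in control and 1330, 1162 and 1016 in Ehmt2 GKO libraries, a log2 fold change of 0.46 ± 0.15. Ccnb1 had 63205, 62555 and 62922 against 83567, 97670 and 85991, a change of 0.41 ± 0.10. The copy held 1.25% of the reads of the pair in control and 1.30% in Ehmt2 GKO oocytes, so the share of the copy was almost the same.

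Ptges3-ps, identical over its length to the Hsp90 co-chaperone gene Ptges3, had 393, 531 and 482 against 813, 699 and 814, a log2 fold change of 0.63 ± 0.14 beside 0.49 ± 0.14 for Ptges3. Gm9892 had 418, 466 and 379 against 711, 587 and 619, a change of 0.51 ± 0.14 beside 0.62 ± 0.14 for its parent Eif2s2, a translation initiation factor gene. Gm8121 had 584, 587 and 475 against 363, 356 and 297, a change of -0.79 ± 0.15 beside -0.79 ± 0.11 for its parent Immp1l, a mitochondrial protease gene. Zfp813-ps, only 79.0% identical to its closest listed relative Gm29106, had a log2 fold change of -0.47 ± 0.10 beside -0.54 ± 0.12. None of these copies was called. Shares of the pair's reads held by Ptges3-ps (18.7% and 20.2%), Gm9892 (5.03% and 4.67%) and Gm8121 (4.98% and 5.00%) were almost equal in the 2 groups.

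Gm15801, named after its values were seen, shows the limit of such counts. It is a single-exon copy on chromosome 19 within an intron of Aldh18a1, and over its 522 bases it was 100% identical to the coding sequence of Ptp4a1, a tyrosine phosphatase gene. The first 80 bases, at chr19:40560979-40561058 on the minus strand, read the same in the parent on chromosome 1.

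Ptp4a1: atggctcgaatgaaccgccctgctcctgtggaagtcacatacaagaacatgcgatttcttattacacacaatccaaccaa
Gm15801: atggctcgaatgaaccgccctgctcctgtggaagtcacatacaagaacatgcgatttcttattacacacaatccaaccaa

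Gm15801 had 116, 113 and 129 normalized counts in control and 480, 712 and 839 in Ehmt2 GKO libraries, a log2 fold change of 2.41 ± 0.18 (edgeR adjusted p = 1.94e-08). None of its windows of 50 or 100 bases was unique (0%), 5 other loci held a near-identical transcript, and its matched parent was not among the listed genes. The locus that gave the reads cannot be told from the counts.

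Diverged copies could also differ from their best-matching parents. The gene 2410141K09Rik on chromosome 13 had 486, 382 and 468 normalized counts in control and 2.94, 4.25 and 4.20 in Ehmt2 GKO libraries, a log2 fold change of -6.92 ± 0.27. Of the 5 annotated processed pseudogenes that matched it best, all named after their values were seen, AC154506.4, AC164117.1 and AC192616.8 were called lower, by -1.03, -1.38 and -1.96. AC164297.1 was called higher, with 20.6, 13.5 and 18.4 against 82.4, 113 and 71.4 normalized counts and a change of 2.24 ± 0.33. AC144733.1 was too low to be tested, with 1.96, 0 and 0 against 7.85, 19.1 and 10.5. The copies were 71.4% to 76.8% identical to the parent, and 10.8% to 36.6% of their windows were unique. All 5 lie on chromosome 13 too, and AC164117.1 has 7 annotated exons and AC154506.4 and AC164297.1 have 3 each. The matched gene need not be their source, which was not tested.

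Clec2f, an unprocessed copy in the natural killer cell receptor region of chromosome 6, had 82.4, 71.5 and 68.6 normalized counts in control and 46.1, 39.3 and 43.0 in Ehmt2 GKO libraries. Its change of -0.88 ± 0.27 was not called. Its parent Clec2g went the other way, with 3.92, 0 and 0.967 against 125, 88.2 and 112 and a log2 fold change of 5.87 ± 0.52. Each window of Clec2f was unique (100%).

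Near-identity was common throughout. Of the 121 pseudogenes, 61 had a near-identical transcript at another locus (41 processed and 20 unprocessed), and the median share of unique 50-base windows was 66.5% for processed and 56.0% for unprocessed pseudogenes. Among the 12 unprocessed pseudogenes called higher, 10 had a near-identical transcript. Restricted to members with at least 90% unique windows, 25 processed pseudogenes remained, of which 11 were called higher and 7 lower. Of the 7 such unprocessed pseudogenes, 0 were called higher and 1 lower, and at an unadjusted edgeR p under 0.05 2 were higher, and DESeq2 called 2 higher. Called processed pseudogenes of either direction thus included members with at least 90% unique windows. These counts stand beside 18.7% of all tested rows called higher and 16.9% lower. Among other rows under 100 normalized counts, 90.9% were called in either direction. The part of shared reads in the calls was not tested.

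By position, 9 of the pseudogenes lie on chromosome X, and 6 of the 8 tested were called higher and 0 lower, by DESeq2 0 lower too and with 0 lower at an unadjusted edgeR p under 0.05. Of 103 other tested rows on chromosome X 35.0% were called higher and 11 rows lower. These rows were not matched for level, and some of the pseudogenes were of low level (Rpl30-ps11 and Gm4997, with means of 8.88 and 22.6 normalized counts). Among other rows under 100 normalized counts on all chromosomes, 90.9% were called in either direction. Neighbours were compared with the nearest listed gene within 50 kb. Of 18 processed pseudogenes with such a neighbour, 7 had its direction, and of 15 unprocessed pseudogenes 10, against 59.1% of 707 other rows. On chromosome 4, Gm12633, a copy of Zfp352, had 153, 191 and 254 normalized counts in control and 753, 674 and 530 in Ehmt2 GKO libraries, and lies 7.40 kb from the Gapdh copy Gm12634, which rose too. On chromosome 11, Gm11954, a copy of the ubiquitin-conjugating enzyme gene Ube2l3, was called lower with a log2 fold change of -1.06 ± 0.31 at 49.7 kb from Gm11953. Both pairs were named after their values were seen.

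The 250 bases before the annotated start were compared for interspersed and simple repeats, read as soft-masked bases of the GRCm38 reference. Pseudogenes called higher had a median of 30.4% masked bases, those called lower 19.4%, those not called 10% and those not tested 14.8%, with 17.2% over all 121. Over the whole annotation the medians were 22.4% for processed pseudogenes, 26.4% for unprocessed pseudogenes and 11.2% for all genes. The call groups were not tested against each other, and the annotated start of a pseudogene need not be its transcription start.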

How the data were processed

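Counts from 6 oocyte RNA libraries, 3 control and 3 Ehmt2 GKO, were used, and 11 bisulfite sequencing samples were not analysed here. The authors deposited raw counts of reads per gene, without normalization, next to their own fold change, p-value and adjusted p. The deposited p-values served only to see how the table had been selected. Per the submitters' processing notes HISAT2 and DESeq2 were among the tools and GRCm38 was the build. The counting program and annotation are not given in the sources used here.

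All rows were fitted in R 4.3.3 with edgeR 4.0.16. Rows passed filterByExpr (minimum count 10), libraries were scaled by TMM, quasi-likelihood F-tests compared the groups, and p-values were adjusted by Benjamini-Hochberg over the 2516 rows that passed. A call required both a fold change over 2 and an adjusted p under 0.01. Each SE was the log2 fold change divided by the square root of F. Because 99 rows failed the filter, members that passed through their higher group only had to differ. Normalized counts were reads divided by DESeq2 1.42.0 size factors. An exact permutation test of 3 against 3 libraries cannot go below 0.10. Intervals of 95% and the floor of 3 reads over a group cover counting error only. The fits were tested on simulated data.

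Transcripts came from GENCODE vM21, in which all 121 identifiers were found, 117 with the same coordinates, and genome sequence from the GRCm38.p6 reference. The parent was the best hit of blastn 2.17.0 among protein-coding transcripts of another locus, and copies of the Gapdh-like gene Gm10358 were grouped with Gapdh. Alignments were made with mafft 7.526. Printed stretches were the ungapped 80 bases within the coding sequence of the parent with the most variable positions, or the first of those where none varied.

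Members and lists were chosen with earlier results of these data known. In each class the text names up to 6 called members per direction, by size of change among those with a mean of at least 20 normalized counts, besides the 3 most abundant, the 5 most abundant with a listed parent, and members of other biotypes. Other names stand for a count or a family of parents, or are marked as chosen afterwards. Alternatives were other scalings, DESeq2, limma 3.58.1, other filters and thresholds, members without near-identical copies and leaving out each library.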

Additional observations from a re-analysis of the deposited data

How the results depend on the processing

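The counts of called pseudogenes moved by over 1.5 times under 3 settings in most classes. Asking for at least 10 counts in every library left 13 processed higher, 19 processed lower, 4 unprocessed higher and 1 unprocessed lower, testing the fold change against 2 left 16, 4, 7 and 1, and members without a near-identical transcript gave 14, 13, 2 and 1. The setting on counts and that on near-identity keep fewer genes by construction. DESeq2, run without the filter on low counts, called 19 unprocessed pseudogenes higher. Leaving out 1 library at a time gave 25 to 27 processed higher, 25 to 30 processed lower, 12 to 16 unprocessed higher and 2 to 5 unprocessed lower, the 5 without Ehmt2 GKO replicate 4. The log2 ratio of the summed processed counts was 0.060 without the most abundant member and -0.12 without near-identical members. It ranged from 0.37 to 0.47 over the left-out libraries, and that of the unprocessed counts from 0.29 to 0.41. Among 396 alternative values of 33 named pseudogenes, 0 changed sign, 13 lost the call and 3 gained it, and 7 of the losses came with the test against 2. No paired analysis was possible because the control and Ehmt2 GKO RNA libraries share no replicate numbers. Reads of genes that are not listed were not analysed here, so total depth is not known, and single reads decide values near 0.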
